A study of Mus musculus with 11 samples.

Results

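The rod phototransduction cascade was followed through 9 genes chosen by name from the 25311 genes of the count matrix: the transducin subunits Gnat1, Gnb1 and Gngt1, the cGMP phosphodiesterase subunits Pde6a, Pde6b and Pde6g, the channel subunit Cnga1, the arrestin Sag and phosducin, Pdc. All 9 had UMI counts in the table, and their levels were read in each retinal class of each mouse. A UMI is a molecular identifier that marks 1 captured RNA molecule.

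Retinas of C57BL/6J mice of both sexes were taken at P10 with the retinal pigment epithelium removed, dissociated with papain and captured with inDrop v3. Control mice received PBS (n = 3). Phase I ROP mice (n = 3) received streptozotocin, which raises blood glucose in the neonate. This stands as a model for the early, hyperglycemia-associated phase of retinopathy of prematurity. The paper speaks of littermates but does not make clear which groups shared a litter. The other Phase I ROP mice also received streptozotocin, and their nursing dams were fed a diet enriched with ω-3 (n = 2) or ω-6 (n = 3) long-chain polyunsaturated fatty acids. No allele differed between the groups. The short descriptions of 2 ω-6 libraries leave out streptozotocin, which their treatment field gives.

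Rods detect single photons. In light transducin exchanges its nucleotide, its α subunit relieves the phosphodiesterase of the inhibitory γ subunit, cGMP falls and the cyclic nucleotide-gated channel closes. Arrestin shuts the cascade off at its first step, and phosducin binds transducin βγ. Cones run a parallel cascade with their own transducin, phosphodiesterase and channel genes, and in the mouse both cell types build their outer segments during the weeks after birth.

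RefSeq promoter windows of GRCm38.p6, from 250 bases before to 50 bases after the annotated start, were at hand for 6 of the 9 genes and not used here for Gnat1, Pde6g and Pde6a. Of the 6, 5 are printed, to set beside each other genes that differed across the retinal classes: Cnga1 and Pde6b were nearly absent from control cones, Sag and Gngt1 were abundant there, and Gnb1 was the member with a high level in amacrine cells. The windows are Sag chr1:87803430-87803729 on the plus strand, Gngt1 chr6:3993758-3994057 on the plus strand, Cnga1 chr5:72642703-72643002 on the minus strand, Pde6b chr5:108388123-108388422 on the plus strand and Gnb1 chr4:155491111-155491410 on the plus strand. Each is written in the direction of its gene. Capitals mark TAATCC or its reverse complement GGATTA, the core bound by the photoreceptor homeobox factor CRX, and TGCTGA or its reverse complement TCAGCA, a half-site of the MAF family to which the rod factor NRL belongs.
Sag: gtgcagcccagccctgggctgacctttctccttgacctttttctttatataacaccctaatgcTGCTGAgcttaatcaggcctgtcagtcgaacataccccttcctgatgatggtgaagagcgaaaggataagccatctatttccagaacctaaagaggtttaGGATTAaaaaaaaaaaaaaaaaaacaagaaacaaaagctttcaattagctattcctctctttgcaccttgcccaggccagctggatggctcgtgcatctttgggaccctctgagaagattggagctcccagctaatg
Gngt1: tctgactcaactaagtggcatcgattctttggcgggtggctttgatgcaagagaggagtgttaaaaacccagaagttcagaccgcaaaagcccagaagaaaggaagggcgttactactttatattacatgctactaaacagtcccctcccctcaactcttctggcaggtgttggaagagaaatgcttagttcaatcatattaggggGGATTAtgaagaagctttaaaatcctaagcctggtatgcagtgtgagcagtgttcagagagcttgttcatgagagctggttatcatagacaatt
Cnga1: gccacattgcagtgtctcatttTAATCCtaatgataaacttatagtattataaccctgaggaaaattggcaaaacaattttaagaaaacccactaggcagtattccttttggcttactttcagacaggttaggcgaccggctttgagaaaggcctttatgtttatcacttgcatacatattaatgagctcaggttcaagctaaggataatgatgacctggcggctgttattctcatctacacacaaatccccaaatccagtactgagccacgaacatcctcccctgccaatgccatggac
Pde6b: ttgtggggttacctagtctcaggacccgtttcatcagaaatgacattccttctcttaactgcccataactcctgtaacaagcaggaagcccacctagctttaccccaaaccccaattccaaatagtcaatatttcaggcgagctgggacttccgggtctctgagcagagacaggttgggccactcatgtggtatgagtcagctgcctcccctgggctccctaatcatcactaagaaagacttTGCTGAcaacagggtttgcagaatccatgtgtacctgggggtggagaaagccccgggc
Gnb1: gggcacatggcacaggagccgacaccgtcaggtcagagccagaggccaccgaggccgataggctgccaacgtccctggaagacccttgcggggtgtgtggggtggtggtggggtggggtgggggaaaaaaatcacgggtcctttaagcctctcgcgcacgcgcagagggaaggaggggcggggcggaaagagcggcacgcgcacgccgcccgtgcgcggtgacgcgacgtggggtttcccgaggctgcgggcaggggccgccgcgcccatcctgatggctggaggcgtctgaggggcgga

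TAATCC in either orientation was found in 3 of the 6 windows (Sag, Gngt1 and Cnga1), and in 7.06% of 32851 RefSeq promoter windows of the same length. TGCTGA in either orientation was found in 2 of the 6 (Sag and Pde6b), and in 19.5% of all windows. The Gnb1 window and the Pdc window, which is not printed, held neither motif. The Gnb1 window was 70.3% G and C, whereas the other 5 ran from 38.0% to 51.3%. A match of letters describes the window only, and no match says nothing about a factor. Genes that control cones nearly lacked (Cnga1, Pde6b) and genes that were abundant in them (Sag, Gngt1) both carried matches.

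After filters on cells, 20033 cells fell into 25 clusters, which were named from marker genes that did not include the 9 members. None of the members was among the 2000 variable genes used for the clustering. Rods made up 9863 cells, cones 1126, bipolar cells 3596, amacrine cells 3287 and Müller glia 1425, and these 5 classes had at least 10 cells in every mouse. Totals per mouse ran from 2563064 to 3486742 UMIs in the control and Phase I ROP groups without diet and from 4356305 to 6516478 UMIs in the diet groups. The control libraries stood apart from all others: Rn7sk was at 193 to 290.2 CPM (counts scaled to a total of 1000000 UMIs) against 1.15 to 16.2, mt-Rnr2 at 28195 to 41188 against 3060 to 8232, and the immediate early gene Fosb at 0.390 to 0.890 against 116 to 231. Rods were 24.1% to 31.4% of the cells in control mice and 46.0% to 62.1% in the other mice. Library and treatment cannot be told apart for these features, since all control libraries share them. Counted over all libraries together, 1154 of 18842 cell barcodes occurred in more than 1 library.

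In rods, every member was detected in every mouse, and the members together took 1.29% to 2.26% of rod UMIs in control mice and 2.61% to 3.62% in Phase I ROP mice. Levels are given as CPM, the UMIs of a gene scaled to 1000000 UMIs of that class in that mouse, and not divided by length, since inDrop counts molecules from their 3' ends. Pde6a, Gnat1 and Cnga1 were higher in Phase I ROP than in control rods, and Sag was the member with the smallest difference. Of the 9 members tested, 3 were higher and 0 lower by edgeR's quasi-likelihood test at an adjusted p under 0.05, while 17.9% of all 7934 genes tested in rods were higher. The median log2 fold change was 0.50 over the members and 0.02 over all genes tested.

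Gnat1 (chr9:107674474-107679712 in GRCm38, minus strand) encodes the rod transducin α subunit that activates the phosphodiesterase. Its level in rods was 668, 350.0 and 372 CPM in the 3 control mice and 1057, 1625 and 1185 CPM in the 3 Phase I ROP mice. The 2 groups did not overlap, and the log2 fold change was 1.12 ± 0.27 (SE; edgeR adjusted p = 0.0040). Gnb1, the β subunit of transducin and also of G proteins in other cells, was at 2234, 1318 and 2279 CPM in control rods and at 3181, 4040.0 and 4067 CPM in Phase I ROP rods. All 3 Phase I ROP values lay above the controls, but the change of 0.59 ± 0.27 on the log2 scale did not pass (edgeR adjusted p = 0.098). Gngt1, the rod γ subunit, was at 4600.3, 2264 and 3796 CPM in control rods and 5035, 6716 and 7458 CPM in Phase I ROP rods, with a log2 fold change of 0.49 ± 0.31 that did not pass (edgeR adjusted p = 0.22).

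The phosphodiesterase hydrolyses cGMP through its α and β subunits. Pde6a, the α subunit, on chromosome 18, whose annotation overlaps the pseudogene Rps2-ps10 on the other strand, was at 299, 285 and 302 CPM in control rods, a narrow range, and at 713, 954 and 948 CPM in Phase I ROP rods. Its difference was the largest of the 9 in rods, with a log2 fold change of 1.19 ± 0.22 (edgeR adjusted p = 0.00050). Pde6b, the β subunit that pairs with it, was at 835, 518 and 870.3 CPM in control rods and 1043, 1367 and 1402 CPM in Phase I ROP rods. The Pde6b groups did not overlap in CPM, yet the log2 fold change of 0.41 ± 0.24 did not pass (edgeR adjusted p = 0.19). Pde6g (chr11:120447605-120453500, minus strand), the inhibitory γ subunit, was at 4910.0, 2813 and 4849 CPM in control and 5137, 7315 and 6671 CPM in Phase I ROP rods, with a log2 fold change of 0.25 ± 0.30 (edgeR adjusted p = 0.54).

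Cnga1 encodes the α subunit of the rod cyclic nucleotide-gated channel. It was at 595, 423 and 500.1 CPM in control rods and at 909, 1391 and 1488 CPM in Phase I ROP rods, with no overlap and a log2 fold change of 0.95 ± 0.24 (edgeR adjusted p = 0.0056). Sag, the arrestin that ends the light response, was at 3125, 1996 and 3969 CPM in control and 3125, 4424 and 3977 CPM in Phase I ROP rods. The Sag groups overlapped, and the log2 fold change was -0.02 ± 0.29 (edgeR adjusted p = 0.96). Pdc (chr1:150319417-150333906, plus strand, overlapping the antisense gene 2310030A07Rik) was at 5289, 2964 and 4341 CPM in control and 5914, 7946 and 9004 CPM in Phase I ROP rods, and its log2 fold change of 0.50 ± 0.31 did not pass (edgeR adjusted p = 0.21).

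**Figure D1:**
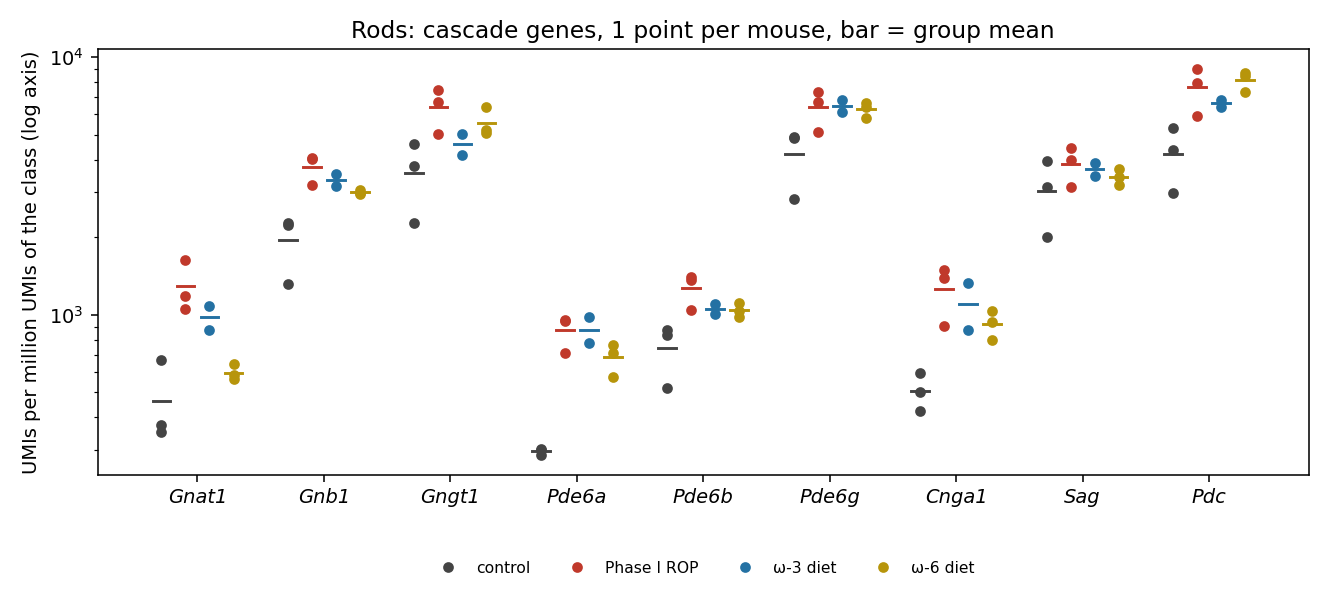
Level of each of the 9 members in rods, in CPM on a log axis, with 1 point per mouse, bars for group means and the 4 groups in separate colours. Control rods lay lowest for Pde6a (285 to 302 CPM against 577 to 979 CPM in the other mice). For Sag, Gnat1 and Gngt1 the control mice overlapped with some treated mice, for Gnat1 with the ω-6 diet and for Gngt1 with the ω-3 diet.

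Features of the control libraries moved with these values. The second control mouse had the lowest rod level of all 9 members among the control mice, with 190 rods and 231459 rod UMIs. The median gene lay higher by 0.33 on the log2 scale under plain library-size scaling than under TMM scaling, which adjusts for composition, and under library-size scaling 7 of 9 members were higher, against 29.6% of all genes. Pdc, Gnb1, Pde6b and Gngt1 then passed, and the sign for Sag flipped to 0.32. The share of rods that fell into the 2 clusters led by rod markers was 40.5% to 62.7% in control and 81.8% to 89.9% in Phase I ROP mice, and within these clusters alone Pde6a, Gnat1 and Cnga1 still differed, by 1.25, 1.00 and 0.71 on the log2 scale (edgeR adjusted p of 5.9e-05, 0.0024 and 0.012). Markers of some other classes also moved with the rod values. In control and Phase I ROP rods the 9 cone markers summed to 294 to 574 and 165 to 221 CPM. The 13 bipolar markers summed to 282 to 575 and 192 to 233 CPM, and the 8 pigment epithelium markers to 488 to 724 and 114 to 251 CPM. Horizontal, microglial and ganglion cell markers were also higher in control rods, without overlap. The groups overlapped for markers of Müller glia (202 to 264 and 227 to 254 CPM) and amacrine cells (258 to 536 and 230 to 284 CPM). They also overlapped for endothelial, astrocyte and pericyte markers. The 11 rod markers that are no members summed to 4644 to 8512 CPM in control and 13391 to 18179 CPM in Phase I ROP rods. The part that library differences and RNA of other classes play was not tested.

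Counted cell by cell at an equal depth of 500 UMIs, a control rod held a median of 5, 2 or 4 of the 9 members in the 3 mice, and a Phase I ROP rod 5, 6 or 6. Rods with none of the 9 made up 12.02%, 27.6% and 13.8% in control mice and 1.90%, 0.503% and 0.349% in Phase I ROP mice. Gnat1 had a UMI in 12.6% to 18.9% of control rods and 30.8% to 41.6% of Phase I ROP rods at that depth, and in 18.8% to 26.7% and 40.2% to 53.3% without thinning. In Müller glia, which are not known to use the cascade, the share with a Gnat1 UMI at 500 UMIs was 0.719% to 2.33% in control and 2.01% to 3.26% in Phase I ROP mice. Rods with fewer than 500 UMIs were left out, 50 of 899 in control and 277 of 2966 in Phase I ROP mice, and median depth per rod was 911 to 1107 and 786 to 888.5 UMIs.

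The members also varied among the 8 rod clusters. The mean over mice of Gnat1 ran from 680 to 1062 CPM across the clusters and that of Pdc from 5041 to 7592 CPM. The cluster with the lowest level of 7 members, all but Gnat1 and Pde6a, held 1051 rods and was led by ribosomal and mitochondrial transcripts (Gm42418, mt-Rnr1, mt-Nd5). Mice with fewer than 10 cells in a cluster were left out of its mean, which touched 4 clusters. These clusters come from the same cells, so the ranges are a description.

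In cones the members differed in their control levels. Cnga1, Pde6b and Gnat1, with 0 or 1 UMI in control cones, Gnb1, with 19, and Pdc were higher in Phase I ROP, whereas Gngt1, Pde6g and Sag were at 1589 CPM or above in all control cones and did not pass the test. Pde6a did not pass either, from 34 UMIs in control cones, with levels that overlapped those of Gnb1 there. Of 9 members tested, 5 were higher and 0 lower, while 10.9% of 3125 genes tested in cones were higher. Of the 5, Cnga1, Pde6b and Gnat1 passed the filter on low counts only through the Phase I ROP mice, and could hardly have come out lower. Gnb1 had no UMI in 1 control mouse and also needed the Phase I ROP mice to pass this filter. The share of these genes in this count is thus no independent result. The median log2 fold change was 1.58 over the members, also with Cnga1 at its lower limit, and 0.10 over all genes. Control cones numbered 14, 13 and 46 cells with 37038, 38399 and 92730 UMIs, so that 1 UMI was worth 10.8 to 27.0 CPM.

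Cnga1 had 0 UMIs among the 168167 cone UMIs of all 3 control mice and 180 UMIs among 709704 in Phase I ROP cones, where it was at 262, 277 and 228 CPM. Taking 3 counts over the control group as the floor, Cnga1 was at least 14.2-fold higher in Phase I ROP cones (log2 of 3.83; edgeR adjusted p = 5.7e-05). Cones use other channel subunits, Cnga3 and Cngb3. Pde6b had 1 UMI in control cones and 207 in Phase I ROP cones, a ratio of 49.0 with a 95% counting interval of 8.71 to 1947, and a fitted log2 change of 5.27 ± 0.74 (edgeR adjusted p = 4.8e-05). Its level was 0, 0 and 10.8 CPM in control mice and 253, 381 and 254 CPM in Phase I ROP mice.

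Gnat1, whose cone counterpart is Gnat2, had 1 UMI in control cones and 242 in Phase I ROP cones, with a ratio of 57.3 (95% counting interval 10.2 to 2274) and levels of 0, 26.0 and 0 CPM in control and 249, 494 and 297 CPM in Phase I ROP mice. The fitted log2 change was 5.48 ± 0.77 (edgeR adjusted p = 5.1e-05). Gnb1 was at 0, 104 and 162 CPM in control cones and 873, 1241 and 1149 CPM in Phase I ROP cones, with no overlap. Its log2 fold change was 3.10 ± 0.37 (edgeR adjusted p = 6.3e-06), and cones have a β subunit of their own, Gnb3. Pdc was at 1134, 781 and 1175 CPM in control and 2773, 3898 and 3964 CPM in Phase I ROP cones, a log2 fold change of 1.58 ± 0.26 (edgeR adjusted p = 0.00030).

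The other 4 members all had UMIs in every control cone sum. The Pde6a mean there was 199 CPM, near its means in control amacrine cells (175), bipolar cells (174) and Müller glia (173). Pde6g was at 4698, 5443 and 5133 CPM in control cones and 3746, 5511 and 4733 CPM in Phase I ROP cones, with a log2 fold change of -0.30 ± 0.27 (edgeR adjusted p = 0.46). Gngt1 was at 4077, 3047 and 3095 CPM in control and 2954, 3583 and 3522 CPM in Phase I ROP cones, and its log2 fold change was -0.19 ± 0.25 (edgeR adjusted p = 0.64). The groups overlapped for both genes, although each has a cone counterpart, Pde6h and Gngt2. Sag was at 1944, 1589 and 2642 CPM in control and 1656, 1881 and 1569 CPM in Phase I ROP cones (log2 fold change -0.48 ± 0.24, edgeR adjusted p = 0.16). Pde6a was at 81.0, 313 and 205 CPM in control cones, from 3, 12 and 19 UMIs, and at 321, 399.7 and 359 CPM in Phase I ROP cones (log2 fold change 0.65 ± 0.33, edgeR adjusted p = 0.16). Under library-size scaling Pde6a also passed, with a log2 fold change of 0.97 (edgeR adjusted p = 0.034), and the values for Gngt1 and Pde6g turned positive, to 0.12 and 0.01, as the median gene lay higher by 0.32.

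**Figure D2:**
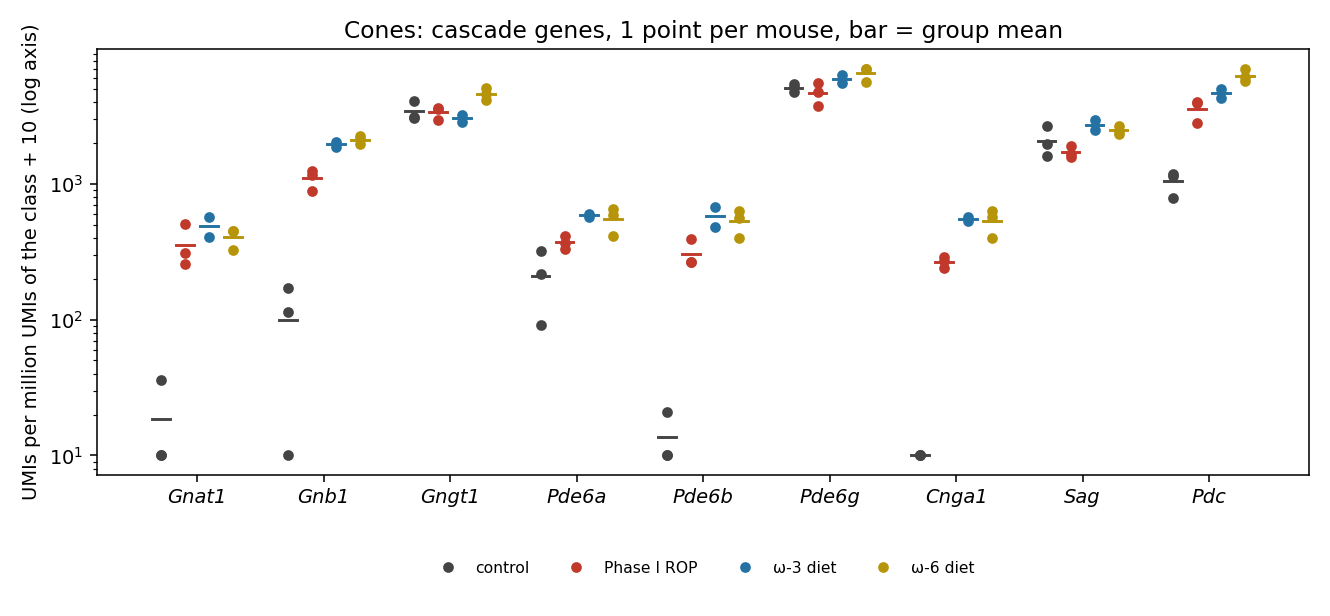
Level of each member in cones, in CPM plus 10 on a log axis, with 1 point per mouse, bars for group means and the 4 groups in separate colours. Control cones lay at or near 0 for Gnat1, Pde6b and Cnga1, whereas all groups lay between 2832 and 7021 CPM for Gngt1 and Pde6g.

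Rod markers outside the cascade members moved with the cone values. The 11 rod markers read here (Nrl, Nr2e3, Reep6, Cngb1, Slc24a1, Rp1, Nxnl1, Ppef2, Esrrb, Prph2 and Rom1) include genes that cones also make, such as the outer segment proteins Prph2 and Rom1. They summed to 2646, 1484 and 1758 CPM in control cones, with 6 to 9 of the 11 at 1 UMI or more, and to 5139, 7561 and 6602 CPM in Phase I ROP cones, with no overlap. The 9 cone markers summed to 27162 to 32210 CPM in control cones and 16624 to 19622 CPM in Phase I ROP cones, and cones were 1.51% to 3.08% and 5.54% to 6.87% of cells. Their part in the cone result was not tested. Leaving out the 5% of cells that scored highest as doublets removed 2.75% of cones, and 5 of 9 members were called, with the share of all genes not given. The mean of the rod markers in Phase I ROP cones went from 6434 to 6191 CPM. Since most of it stayed, this setting cannot show the part of rod RNA in the calls. With the sums thinned to equal depth, 7 members could be tested and 3 were called (Gnb1, Gnat1 and Pdc), against 24.1% of all genes in either direction.

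Relative to rods of the same mouse, the members also differed in control cones. In control cones the median over mice was 0% of the rod level for Gnat1, Pde6b and Cnga1, 7.10% for Gnb1 and 26.4% for Pdc, against 66.6% for Sag, 67.8% for Pde6a, 88.6% for Gngt1 and 105.9% for Pde6g. The 11 rod markers together were at 31.1%. In Phase I ROP cones without a diet, the rod markers were at 36.3% to 43.1% of rods, Pde6b at 18.1% to 27.9%, Cnga1 at 15.3% to 28.9% and Pde6g at 70.9% to 75.3%. In the diet groups the rod markers were at 67.8% to 81.5%, Pde6b at 39.8% to 59.7%, Cnga1 at 42.1% to 60.6% and Pde6g at 90.0% to 108.7%. Sag, Gngt1 and Pde6g were above the percentage of the rod markers in all 3 control mice, at 2.00 to 6.05 times it, and Pde6a at 0.871 to 3.43 times. In all 8 streptozotocin-treated mice Pde6g was at 1.26 to 1.95 times the percentage of the rod markers, and Pde6b was below it, at 0.498 to 0.809 times.

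Whether a member changed more in cones than in rods was tested by the interaction of class and treatment, with the mouse as a term. The change in cones exceeded that in rods for 5 of 9 members, and for 5.1% of all 6231 genes tested. Of these 5, Cnga1, Pde6b and Gnat1 had almost no UMIs in control cones and could hardly fall there. The differences in log2 fold change were 2.66 ± 0.39 for Gnb1 (edgeR adjusted p = 4.3e-06), 5.08 ± 0.81 for Pde6b (edgeR adjusted p = 1.9e-05), 4.45 ± 0.87 for Gnat1 (edgeR adjusted p = 0.00046) and 1.18 ± 0.25 for Pdc (edgeR adjusted p = 0.0013). Cnga1 also passed (edgeR adjusted p = 0.00028), but its fitted value rests on 0 control UMIs and depends on the prior count, as do those for Pde6b and Gnat1 from 1 UMI each. Gngt1, Pde6g, Pde6a and Sag had differences from -0.59 to -0.33 that did not pass, with edgeR adjusted p from 0.15 to 0.61. The median difference over all genes tested was 0.30, and 0.12 under library-size scaling. Under library-size scaling Gngt1 and Pde6g also passed, with the lower change in cones, which gave 7 calls, with the share of all genes not given.

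**Figure D3:**
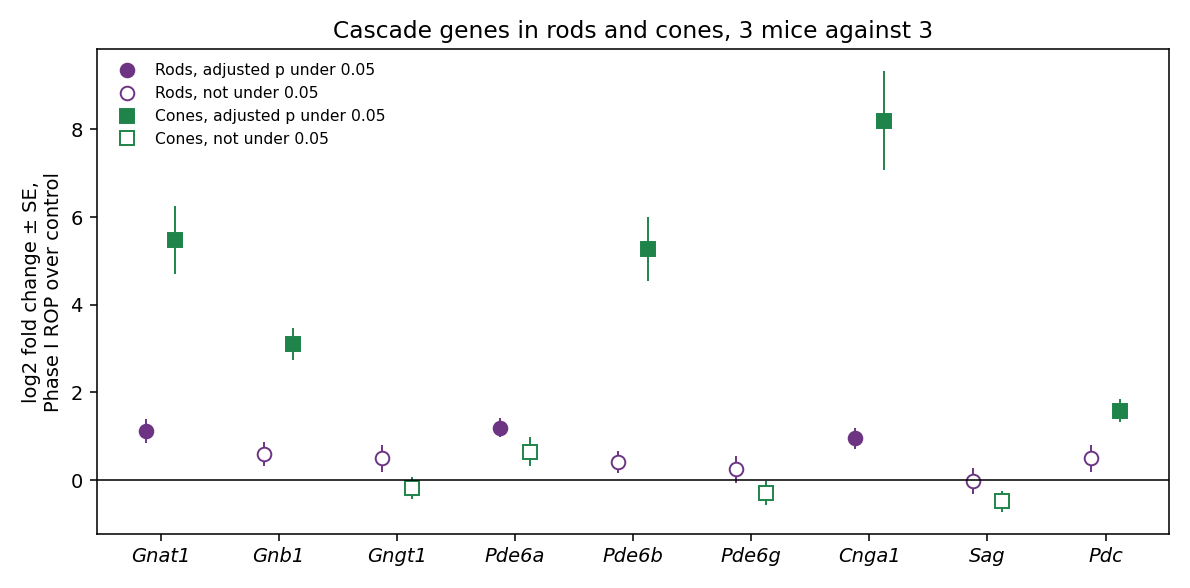
Log2 fold change of Phase I ROP over control for the 9 members, in rods and in cones, with SE bars from the edgeR fit. In cones Gnat1, Pde6b and Gnb1 lay at 3.10 or above and Gngt1, Pde6g and Sag below 0 (Gngt1 and Pde6g above 0 under library-size scaling), while all values in rods lay between -0.02 and 1.19. The Cnga1 value in cones is fitted against 0 control UMIs.

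Bipolar and amacrine cells, the interneurons of the inner retina, and Müller glia, its main glia, also gave UMIs for every member. In these classes most members were at a few percent of the rod level in the treated mice, and Pde6a and Gnb1 stood above the rest. In amacrine cells, Pdc, Pde6b, Gngt1, Sag and Cnga1 were higher and Gnat1 and Pde6a lower in Phase I ROP, so that 7 of 9 members were called, where 38.8% of 11315 genes were called in either direction. Pde6b and Cnga1 passed the filter on low counts only through the Phase I ROP mice, so their share in this count is no independent result. In bipolar cells 3 of 9 were called, where 45.3% of 10019 genes were: Pdc was higher and Pde6a and Gnat1 were lower. In Müller glia 6 of the 9 passed the filter on low counts, and Pdc, Gngt1 and Pde6g were higher, 3 of 6, where 5.81% of 4855 genes were higher. Of these 3, Pdc and Gngt1 were too low in some control mice and passed the filter only through the Phase I ROP mice. Their share in this count is no independent result.

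Amacrine Gnat1 was at 92.1, 99.9 and 92.4 CPM in control mice and 44.5, 51.9 and 30.8 CPM in Phase I ROP mice. The groups did not overlap, and its log2 fold change was -1.51 ± 0.21 (edgeR adjusted p = 0.00011), the opposite sign to rods. Pde6a was at 162, 196 and 166 CPM in control and 126, 131 and 98.3 CPM in Phase I ROP amacrine cells, and fell by 0.91 ± 0.16 on the log2 scale (edgeR adjusted p = 0.00061). Pdc was at 14.8, 10.7 and 26.2 CPM in control and 130.4, 138 and 237 CPM in Phase I ROP amacrine cells, a log2 fold change of 2.96 ± 0.31 (edgeR adjusted p = 1.1e-05). Pde6b had 1, 2 and 4 UMIs in the 3 control mice (0.990 to 4.56 CPM) and was at 22.3, 30.0 and 30.8 CPM in Phase I ROP mice. Its fitted log2 fold change was 3.11 ± 0.49 (edgeR adjusted p = 0.00025). With so few control UMIs, Pde6b passed the filter on low counts only through the Phase I ROP mice.

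Gngt1 was at 28.7, 33.9 and 41.1 CPM in control amacrine cells and at 101, 120.0 and 150.0 CPM in Phase I ROP ones, with a log2 fold change of 1.49 ± 0.22 (edgeR adjusted p = 0.00014). Sag rose by 0.75 ± 0.20 (edgeR adjusted p = 0.0086) and Cnga1 by 1.57 ± 0.52 (edgeR adjusted p = 0.027). Cnga1, at 2.91 to 8.91 CPM in control amacrine cells, passed the filter on low counts only through the Phase I ROP mice, like Pde6b. Gnb1, which serves G proteins of many neurons, was at 500.4 to 515 CPM in control and 637 to 735 CPM in Phase I ROP amacrine cells, the highest member there in both groups. Its log2 fold change of 0.10 did not pass (edgeR adjusted p = 0.50), nor did that of Pde6g at 0.28 (edgeR adjusted p = 0.20). Under library-size scaling, which moved the median gene by 0.35, all 9 members passed in amacrine cells, against 45.5% of all genes, 7 higher and 2 lower, with Gnat1 and Pde6a still the lower ones.

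In bipolar cells Pdc was at 129.6, 110.1 and 226 CPM in control and 225, 424 and 512 CPM in Phase I ROP mice, a log2 fold change of 0.89 ± 0.27 (edgeR adjusted p = 0.015). Pde6a was at 166 to 189 CPM and 119 to 174 CPM, with a log2 fold change of -0.63 ± 0.17 (edgeR adjusted p = 0.0090). Gnat1 was at 77.2 to 130.0 CPM and 62.6 to 95.1 CPM, with a log2 fold change of -0.84 ± 0.25 (edgeR adjusted p = 0.012). The CPM ranges of the 2 groups overlapped for both genes, and neither was called under library-size scaling, where the log2 fold changes were -0.21 and -0.41 and 4 of 9 members, all higher, passed, against 38.1% of all genes. TMM and library-size scaling differed by 0.42 (log2) for the median gene of this class. The count was 0 of 9 without the third Phase I ROP mouse and 6 of 9 without the third control mouse. The share of all genes in those fits is not given.

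In Müller glia Pdc was at 27.1, 12.3 and 98.2 CPM in control and 160.0, 423 and 353 CPM in Phase I ROP mice, with a log2 fold change of 2.39 ± 0.48 (edgeR adjusted p = 0.0055). Gngt1 was at 69.8, 6.13 and 54.3 CPM and at 97.3, 345 and 412 CPM, a log2 fold change of 2.42 ± 0.52 (edgeR adjusted p = 0.0087). Pde6g was at 159 to 184 CPM in control and 185 to 474 CPM in Phase I ROP mice, a log2 fold change of 0.96 ± 0.29 (edgeR adjusted p = 0.044). Pde6a, at 155 to 196 CPM and 104 to 201 CPM, overlapped between the groups. Leaving out the second or the third Phase I ROP mouse left 1 of 6 calls, with the share of all genes not given. The Müller class of the smallest control mouse held 44 cells.

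The summed level of the same 11 rod markers was read beside the members in each of these classes. In amacrine cells it was at 39.6, 33.9 and 68.4 CPM in control and 273, 398 and 496 CPM in Phase I ROP mice. In bipolar cells it was at 312, 248 and 525 CPM and at 722, 967 and 1088 CPM, and in Müller glia at 81.4, 55.2 and 139.6 CPM and at 298, 737 and 1005 CPM. The groups did not overlap in any of these 3 classes. Rod transcripts outside rods thus differed between the groups, and their part in the values of the inner classes was not tested.

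Dividing each level by that in rods of the same mouse sets the members beside the 11 rod markers on 1 scale. In the 8 streptozotocin-treated mice, the rod markers in amacrine cells were at a median of 3.38% of rods, and Pdc at 3.21%, Gngt1 at 3.51%, Cnga1 at 3.34%, Sag at 3.79%, Pde6b at 2.49% and Pde6g at 4.24% lay close to them. Gnat1 at 6.54%, Pde6a at 16.9% and Gnb1 at 20.6% lay above them. The same 2 genes, Pde6a and Gnb1, lay highest in bipolar cells (21.9% and 11.97%, with the rod markers at 9.58%) and in Müller glia (21.7% and 13.8%, with the rod markers at 8.23%), where Gnat1 was at 7.99% and 7.30%. In both classes the other 6 members lay between 5.22% and 9.43%. These medians span the diets: without a diet the rod markers were at 2.04% to 2.73% in amacrine cells, 5.39% to 5.98% in bipolar cells and 2.23% to 5.53% in Müller glia, and with one at 2.52% to 6.38%, 9.17% to 13.3% and 7.75% to 15.01%.

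In control mice, where the rod markers were at 0.731% of rods in amacrine cells, 5.35% in bipolar cells and 1.19% in Müller glia, Pde6a was at 55.1%, 58.3% and 55.7% of rods in the 3 classes. In absolute terms, Pde6a in control mice lay at 162 to 196 CPM in amacrine cells, 166 to 189 CPM in bipolar cells and 155 to 196 CPM in Müller glia, nearly the same level in all 3, against 285 to 302 CPM in rods. Gnat1 was at 24.8% of rods in control amacrine cells and 20.7% in bipolar cells, but 4.64% in Müller glia. Pde6g, Gngt1 and Sag in control mice were at 2.80%, 1.08% and 1.35% in amacrine cells and at 8.67%, 8.60% and 5.99% in bipolar cells.

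**Figure D4:**
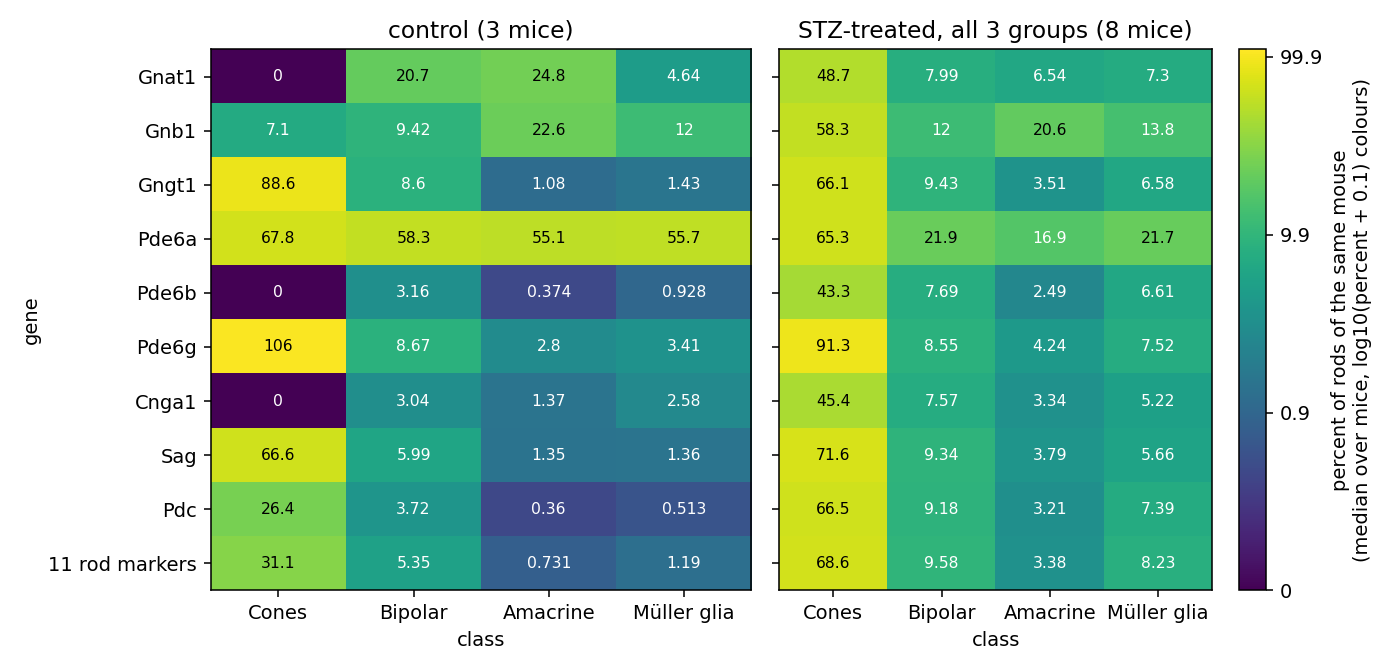
Level of each member and of 11 summed rod markers outside rods as a percent of the level in rods of the same mouse, as the median over the 3 control mice and over the 8 streptozotocin-treated mice, in 4 classes. Pde6a stood at 55.1% to 67.8% in all 4 classes of control mice and Gnat1, Pde6b and Cnga1 at 0% in control cones, while in treated mice the inner classes lay between 2.49% and 21.9%.

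Cells with high doublet scores carried part of the rod transcripts of the inner classes. The score is high for cells that resemble a mix of cells, so inner cells with rod RNA tend to score high. A fall of rod transcripts is thus partly built into this setting, which serves as a description. Leaving out the 5% of cells per library that scored highest removed 9.31% of amacrine cells, 8.54% of bipolar cells and 12% of Müller glia. Over the 11 mice the mean level in amacrine cells went from 144 to 54.0 CPM for Gngt1 and from 236 to 109.7 CPM for Pde6g, against 141 to 127 CPM for Pde6a and 624 to 575 CPM for Gnb1. In amacrine cells 7 members could then be tested, without Pde6b and Cnga1, and 4 were called, with Pdc at 2.46 on the log2 scale (edgeR adjusted p = 1.6e-05) and Gngt1 at 0.95 (edgeR adjusted p = 0.022) higher and Gnat1 and Pde6a lower. Sag, at 0.35, no longer passed (edgeR adjusted p = 0.27). In bipolar cells the value for Pdc went from 0.89 to -0.07 (edgeR adjusted p = 0.83), and the 4 calls were all lower (Gnat1, Sag, Pde6g and Pde6a). In Müller glia 5 members could be tested, without Pdc, and 1 passed, Gngt1 at 3.46 (edgeR adjusted p = 0.0015), while Pde6g at 0.54 did not (edgeR adjusted p = 0.37). Gngt1, then at 6.82 to 22.6 CPM in control Müller glia, again passed the filter on low counts only through the Phase I ROP mice. The shares of all genes called in this setting were 38.5% in amacrine cells, 44.3% in bipolar cells and 10.8% in Müller glia.

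The rarer classes could not be tested, since some mice had fewer than 10 cells, and are given as sums over mice. In retinal ganglion cells (96 cells) Pde6a was at 142 CPM in control and 116 CPM in streptozotocin-treated mice, Gnb1 at 729 and 841 CPM, and Pdc at 7.46 and 78.0 CPM, with the 11 rod markers at 32.3 and 244 CPM. In endothelial cells (113 cells) Pde6a was at 136 and 101 CPM and Gnat1 at 56.2 and 23.1 CPM, with the rod markers at 56.2 and 228 CPM. In both classes the summed rod markers were thus higher in the treated cells, and Pde6a was not.

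The remaining genes of the cascade were read from a list of 14 partners, which includes the kinase Grk1, the recoverin and guanylate cyclase systems and the exchanger. In rods 12 were tested, and 9 were higher and 0 lower in Phase I ROP, while 17.9% of all genes were higher, with a median log2 fold change of 0.84 against 0.02 for all genes. The called genes with the largest changes were Rgs9bp, which anchors the transducin-deactivating RGS9 (2.54 ± 0.32, edgeR adjusted p = 2.3e-05), Guca1b, a calcium-sensing cyclase activator (2.39 ± 0.33, edgeR adjusted p = 5.3e-05), Slc24a1, the rod sodium-calcium-potassium exchanger (2.13 ± 0.37, edgeR adjusted p = 0.00037), and Gucy2e, a guanylate cyclase that restores cGMP (2.06 ± 0.29, edgeR adjusted p = 5.6e-05). In cones 6 of 12 were called, 4 higher and 2 lower, against 18.8% of all genes in either direction. The higher ones were Slc24a1, Cngb1, Grk1 and Rgs9bp, and the lower ones Rcvrn (-0.84) and Guca1a (-1.31).

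Of a list of 10 cone counterparts tested in cones, 4 were lower and 0 higher, against 7.9% of all genes lower, and the other 6 did not pass, among them Cnga3 at 1.01 (edgeR adjusted p = 0.19) and Cngb3 at 0.31 (edgeR adjusted p = 0.60). The lower ones were Gngt2, the cone transducin γ subunit (-1.94 ± 0.25, edgeR adjusted p = 2.1e-05), Gnat2, the cone α subunit (-1.43 ± 0.24, edgeR adjusted p = 0.00040), the opsin Opn1mw (-1.31 ± 0.32, edgeR adjusted p = 0.0068) and Pde6h, the cone inhibitory subunit (-1.07 ± 0.28, edgeR adjusted p = 0.012). The α subunits Gnat1 and Gnat2 thus changed in opposite directions in the cone class. Gnb3, the cone β subunit, had a log2 fold change of -0.53 ± 0.24 that did not pass (edgeR adjusted p = 0.12). The summed cone markers given above include Gngt2, Gnat2, Opn1mw and Pde6h and moved with these values.

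The genes whose pattern was most like the mean of the members over the 55 sums of mouse and class were Reep6 (Pearson r = 0.97), Tdrd7 (0.97), Cngb1 (0.96), Samd7 (0.96) and Hs3st3b1 (0.96). Each member's own correlation with the mean ran from 0.81 for Gnb1 to 0.96 for Pde6b. Over the 11 rod sums alone, the genes most like it were Tax1bp1 (0.99), Rcvrn (0.99), A930003A15Rik (0.98), Btbd1 (0.98) and Ppp3cc (0.98), and Sag was the member least like the mean (0.83). The sums of 1 mouse share a library, and genes of a rod-enriched kind share the class they come from, so these are descriptions.

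The diet groups were compared with each other, both having received streptozotocin. No member passed in any of the 5 classes by edgeR, 0 of 9 in each, where the share of all genes called was 0.0161% in rods (2 of 12453 genes, mt-Rnr1 and mt-Rnr2) and 0% in cones, bipolar cells, amacrine cells and Müller glia. Before adjustment, edgeR p lay under 0.05 for 3 of 9 members and 1390 of 12453 genes in rods. The counts were 2 of 9 and 736 of 9160 in cones, and 5 of 9 and 1298 of 13121 in amacrine cells. They were 2 of 9 and 283 of 7945 in Müller glia, and 0 of 9 and 503 of 11942 in bipolar cells. With 2 and 3 mice the comparison has few degrees of freedom, and a p that misses the threshold does not show equal levels.

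Rod Gnat1 was at 874 and 1079.8 CPM with the ω-3 diet and 643, 584 and 564 CPM with the ω-6 diet, without overlap between the diets. The ω-6 values lay within the range of control rods, 350.0 to 668 CPM. The Gnat1 log2 fold change of ω-6 over ω-3 was -0.59 ± 0.14 (edgeR adjusted p = 0.34). Pdc in rods was at 6413 and 6839 CPM with ω-3 and at 7322, 8459.6 and 8636 CPM with ω-6, also without overlap, with a log2 fold change of 0.42 ± 0.12 (edgeR adjusted p = 0.34). DESeq2 called these 2 members in rods, with adjusted p of 0.0075 for Gnat1 and 0.048 for Pdc. It gave an adjusted p to 623 of 12453 genes in rods and called 45 of these, or 7.22%, against 2 genes by edgeR. Gngt1 in rods was at 4157 and 5044 CPM and at 6386, 5081 and 5222 CPM (0.39 ± 0.13, edgeR adjusted p = 0.38). The other 6 members in rods had log2 fold changes from -0.24 to 0.10, and Pde6a, for example, was at 776 and 979 CPM with ω-3 and 766, 713 and 577 CPM with ω-6.

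In cones Gngt1 was at 2832 and 3229 CPM with the ω-3 diet and 5056, 4159 and 4545 CPM with the ω-6 diet. The groups did not overlap, and the log2 fold change was 0.64 ± 0.13 (edgeR adjusted p = 0.36, DESeq2 adjusted p = 0.011, where DESeq2 called 2 of 9160 genes, or 0.0218%). Pdc in cones was at 4311 and 5004 CPM with ω-3 and 6142, 6973 and 5677 CPM with ω-6 (0.47 ± 0.13, edgeR adjusted p = 0.54). In amacrine cells all 9 log2 fold changes were negative, from -1.18 for Pde6b to -0.07 for Gngt1, which turned to 0.11 without the cells of high doublet score, to 0.06 with the replicate block and to 0.06 without the third ω-6 mouse. The summed rod markers moved with them, at 1036 and 853 CPM with ω-3 and 643, 701 and 401 CPM with ω-6. The part of rod RNA in the amacrine values was not tested. Of the partner and cone lists, 0 genes passed in any class by edgeR.

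**Figure D5:**
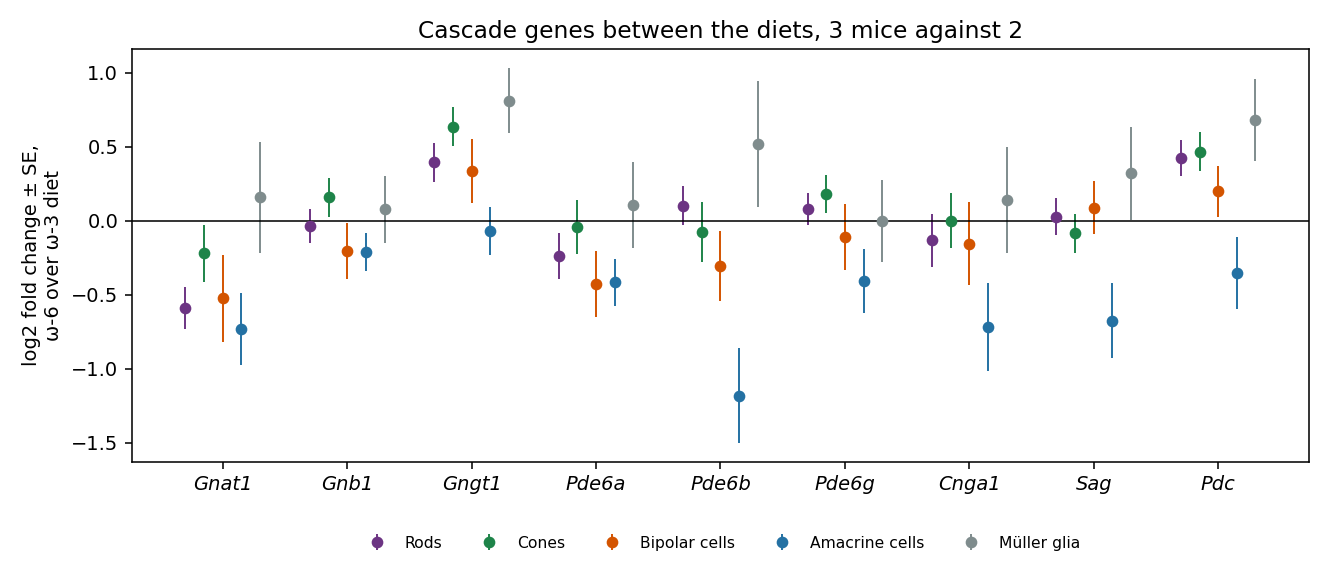
Log2 fold change of the ω-6 over the ω-3 diet for the 9 members in 5 classes, with SE bars from the edgeR fit. In rods Gnat1 lay at -0.59 and Pdc at 0.42, in cones Gngt1 at 0.64, and in amacrine cells all 9 values lay below 0 (Gngt1, at -0.07, turned positive under 3 alternatives), none past the threshold.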

How the data were processed

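Single-cell libraries of 11 mouse retinas were analysed, in 4 groups taken from the sample labels. The authors assigned barcodes and UMIs with the umis tool of bcbio-nextgen, discarded barcodes with few reads, mapped the rest with Rapmap to GENCODE M23 transcripts of GRCm38, and deposited unnormalized whole-number UMI counts for each gene in each cell. The labels name the builds mm10 and GRCm38.p6. Reads shared between Cnga1 or Gnb1 and a processed pseudogene, or between Pdc and the genes that overlap it, may be split between them.

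Cells with more than 300 genes and genes in more than 10 cells were clustered with Seurat 5.3.0 (2000 variable genes, 75 of 100 principal components, resolution 0.2). Clusters were named by markers among their 10 leading genes or, failing that, by how many of their cells held each marker, which was the case for 6 of the 8 rod clusters. A leftover of 315 cells stayed unnamed. Scrublet in scanpy 1.11.5 marked fewer than 0.5% of cells as doublets, too few to have worked, so none were removed in the main results.

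UMI counts were added up within each mouse and class, and mice served as replicates, in classes with at least 10 cells in each mouse. The test was edgeR 4.0.16 (quasi-likelihood, TMM, default filter on low counts, Benjamini-Hochberg over all genes tested, threshold 0.05) in R 4.3.3, with DESeq2 1.42.0 as an alternative. CPM is not TMM-scaled, whereas log2 fold changes are, so that a fold change can differ from the ratio of CPM values. Folds against 0 counts use a floor of 3 counts over the group. Counting intervals are exact, at 95%, and cover counting error only. The fits were tested on simulated data. UMIs per class and mouse ran from 37038 in cones to 2466298 in rods, and low levels are least precise in control cones.

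The members and lists were chosen with earlier results of these data known. Named genes were all members, up to 4 called genes of each list in its own cell type and the 5 genes most like the members. Genes named beyond that rule (the other called list genes in cones, Gnb3, mt-Rnr1 and mt-Rnr2) were chosen after their values were seen, as was library-size scaling as an alternative. 1 gene of the marker and partner lists is not reported here. P-values measure the spread between these mice. Gene positions are from GENCODE M21 and promoter windows from RefSeq.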

Additional observations from a re-analysis of the deposited data

Results flagged for a closer look

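The Phase I ROP change of 5 members differed between cones and rods by the test of the difference itself, the interaction of class and treatment in edgeR. The change in cones exceeded that in rods by 1.18 for Pdc, 2.66 for Gnb1, 5.08 for Pde6b, 4.45 for Gnat1 and 8.58 for Cnga1 on the log2 scale. The 3 control cone sums held 0 UMIs of Cnga1, 1 of Pde6b, 1 of Gnat1 and 19 of Gnb1, so that the sizes for Cnga1, Pde6b and Gnat1 depend on the prior count. Cnga1, Pde6b and Gnat1 could hardly fall in cones from such counts. All 3 Phase I ROP mice lay above all 3 control mice for each of these genes in cones, which for Cnga1, Pde6b and Gnat1 could hardly come out otherwise. The share of all cone genes without overlap is not given, so this describes the values only. The part of rod RNA in the cone sums was not tested.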

How the results depend on the processing

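The direction of Phase I ROP changes and the 0.05 threshold were held against other settings. The counts of members called in Phase I ROP were 7 in rods under library-size scaling, 3 in cones when sums were thinned to equal depth (7 of 9 members then passed the filter on low counts), and 5 in bipolar cells with more than 500 genes per cell, with no filter on low counts and with the replicate block. Without the cells that scored highest as doublets they were 4 in amacrine cells and 1 in Müller glia, and DESeq2 gave 1 in Müller glia. That doublet setting also turned Pdc in bipolar cells to -0.0686 and took the amacrine means to 54.0 CPM for Gngt1 and 109.7 CPM for Pde6g. Leaving out 1 mouse at a time gave 0 to 6 calls in bipolar cells (0 without the third Phase I ROP mouse, 6 without the third control mouse), 1 to 4 in Müller glia (1 without the second or the third Phase I ROP mouse), 3 to 4 in rods and 5 in cones. Shares of all genes called are given above for library-size scaling, for equal depth in cones and for the doublet setting in amacrine cells and Müller glia. The other counts have no such share beside them and describe the settings only, not the members. In the main setting 45.3% of 10019 genes were called in bipolar cells. The causes were not tested.

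For ω-6 against ω-3, the counts were 2 in rods with DESeq2 and 2 with no filter, 1 in cones with DESeq2 and 1 with no filter, 2 in amacrine cells with no filter, and 2 in cones with the replicate block (Gngt1 and Pdc). The DESeq2 shares of all genes are given above. Those with no filter and with the replicate block are not given, so these counts describe the settings only. Same-numbered control and Phase I ROP mice had correlated deviations of -0.05 to 0.15, and 3 or 4 of 6 libraries per class correlated best with their own number. The 2 same-numbered pairs of diet mice had 0.05 to 0.27, of which the pair numbered 2 had 0.18 to 0.27. Between control and Phase I ROP, no class had 3 pairs that all lay over 0.1, so those numbers were not taken to pair the mice. The diet mice, with 2 pairs, could not meet a rule of 3 pairs, which therefore cannot decide their pairing. They were left unpaired in the main results. Depth limits the control cones most, where 1 UMI decides whether Gnat1 or Pde6b is listed at 0.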

Other observations

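Pde6a was also read in the rarest classes of control mice. In control microglia (12 cells, 36912 UMIs) it had 8 UMIs and Gnb1 had 5, while Gnat1, Pde6b, Cnga1 and Pdc had 0, and in control pigment epithelium cells (9 cells, 12055 UMIs) it had 5 UMIs while the other 8 members had 0. In the 8 streptozotocin-treated mice the pigment epithelium class (66 cells) held Gngt1 at 1124 CPM, Pde6g at 1047 CPM and Pde6a at 175 CPM, so that Pde6a was there among the lower members. These are sums of few cells over mice, with no test, and the sequence that its reads came from was not examined here.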
